A study of Mus musculus with 5 samples.

Results

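The step from early to middle repair in aged skin was described by comparing the miRNA array of day 5 (D5) wounds with that of day 3 (D3) wounds of 2-year-old mice. Of the 1900 mouse miRNAs on the array, 354 were bright on at least 1 of these 2 arrays and were kept. A miRNA was bright when the mean scanned intensity of its 2 spots exceeded 2 times a background level, the 95th percentile over the 4 empty spots, which gave a limit of 117 at D3 and 122 at D5. At this limit 278 miRNAs were bright on both arrays, 64 on the D3 array only and 12 on the D5 array only. A miRNA that is bright on 1 array only tends to be higher there through the choice itself, and the ratio was below 1 for 60 of the 64 and above 1 for all 12. At the edge, miR-188-5p was just inside with a scanned intensity of 117 at D3 and 85.1 at D5, and miR-340-3p was just outside with 117 and 76.8. The other 1546 miRNAs were not bright on either array and are not described.

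The samples were back skin of female mice in telogen, the resting phase of the hair cycle, given a full-thickness wound with a 3 mm punch. The 5 arrays were of unwounded skin (D0) and wounds at D3, D5 and D7 of 2-year-old mice, and of unwounded skin of 8-week-old mice. Total RNA was hybridised in a single colour, with 1 array for each condition, and the strain, the number of animals per array and any pooling are not given in the sources used here. No difference between arrays could therefore be tested, no p-value is given, and the error beside a ratio is the agreement of the 2 spots of a miRNA on the same array, which holds no animal-to-animal spread.

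miRNAs are short RNAs that guide a silencing complex to messenger RNAs, mainly through pairing of their seed, bases 2 to 8. In a healing skin wound, neutrophils and then macrophages enter first, keratinocytes migrate and multiply to close the surface, and fibroblasts and new vessels fill the wound bed. Many miRNAs are concentrated in 1 of these cell types, so that a level in whole skin follows both the cells present and their content, and in such bulk samples fewer cells of a type cannot be told apart from less RNA per cell.

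The miRNAs with the lowest D5/D3 ratios are shown first, because a run of G bases recurs in them. Sequences are written 5′ to 3′ as RefSeq gives them with the GRCm38.p6 assembly, in which 290 of the 354 bright miRNAs matched by name and sequence. Capitals mark every GGGAG or GGGGA, including where both overlap.
miR-6931-5p: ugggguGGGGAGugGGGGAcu
miR-30c-1-3p: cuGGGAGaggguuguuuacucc
miR-30c-2-3p: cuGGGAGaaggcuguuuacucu
miR-711: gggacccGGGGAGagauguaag
miR-6944-5p: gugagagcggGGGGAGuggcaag
miR-7011-5p: aggaggauGGGAGaGGGAGgugu
miR-7028-5p: ugggcugaggcuugggucaggag
miR-133b-5p: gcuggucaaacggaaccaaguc
The last pair of these holds neither motif. miR-7028-5p lies at chr5:114719515-114719537 on the plus strand within the span of Tchp, and miR-6931-5p at chr11:102999896-102999916 on the minus strand within the spans of Dcakd and Gm34620. miR-30c-1-3p lies at chr4:120769546-120769567 on the minus strand within Nfyc, miR-30c-2-3p at chr1:23291754-23291775 on the plus strand outside the span of any other listed gene, and miR-133b-5p at chr1:20682797-20682818 on the plus strand within Lincmd1. miR-711 lies at chr9:108969970-108969991 on the plus strand within Col7a1, miR-6944-5p at chr13:55477754-55477776 on the minus strand within Dbn1, and miR-7011-5p at chr3:88440924-88440946 on the minus strand within Sema4a. The gene table used gives spans without strand, exons or introns.

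Of the 10 highest ratios, miR-6965-5p also holds GGGAG, and miR-6968-5p holds runs of G without either motif. The high-ratio miRNAs shown here are those whose roles are described below, chosen after their values were seen, with let-7a-5p and let-7b-5p from lower ranks added for the family. Capitals mark the seed.
miR-31-5p: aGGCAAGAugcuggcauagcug
miR-127-3p: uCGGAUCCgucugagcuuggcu
miR-206-3p: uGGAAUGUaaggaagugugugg
miR-455-3p: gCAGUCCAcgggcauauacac
let-7e-5p: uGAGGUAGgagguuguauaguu
let-7b-5p: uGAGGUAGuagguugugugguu
let-7a-5p: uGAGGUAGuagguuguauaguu
miR-31-5p lies at chr4:88910614-88910635 on the minus strand within Gm49890, miR-127-3p at chr12:109592888-109592909 on the plus strand within Rtl1, miR-206-3p at chr1:20679055-20679076 on the plus strand within Lincmd1 and miR-455-3p at chr4:63256904-63256924 on the plus strand within Col27a1. let-7e-5p lies at chr17:17830366-17830387 on the plus strand within Spaca6, let-7b-5p at chr15:85707325-85707346 on the plus strand within Lncppara, and the copy of let-7a-5p listed in the table at chr13:48538239-48538260 on the minus strand outside other genes.

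In the comparison of the 2 wounds, 21 of the 354 bright miRNAs (5.93%) had a level at D5 at least 2-fold that at D3 and 28 (7.91%) were lower by at least 2-fold, on normalized intensities. The ratio was above 1 for 179 miRNAs (50.6%), below 1 for 173 (48.9%) and exactly 1 for 2, and the median ratio was 1.0. Among the 278 bright on both arrays, 20 were higher (7.19%) and 23 lower (8.27%) by at least 2-fold, 163 lay above 1 (58.6%) and 113 below (40.6%), and the median was 1.13. The 28 lower miRNAs kept a 2-fold difference on each spot taken alone, in the scanned intensities and in the authors' processed values. Of the 21 higher miRNAs, 13 reached 2-fold on both spots, 14 in the processed values and 6 in the scanned intensities. The split depended on the scaling: 7 were higher and 50 lower without normalization between arrays, 5 and 54 after scaling to the median of all miRNAs, 8 and 49 after cyclic loess, 6 and 51 after scaling to the 5S ribosomal RNA probes, 13 and 30 with the spike calibration controls as the scale, and 34 and 87 in the processed values. Between D3 and D5 the mean scanned ratio was 0.870 for the 11 spike controls, with a range from 0.667 to 1.12, and 1.02 for the 5 probes of 5S RNA, while the median scanned ratio of the bright miRNAs was 0.860. A shift shared by all miRNAs is removed by the normalization, so each ratio is relative to the other miRNAs. The SD of the log2 ratio between the 2 spots of a miRNA was 0.18, which corresponds to 1.13-fold, and for 32 miRNAs the spots lay on opposite sides of 1.

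**Figure D1:**
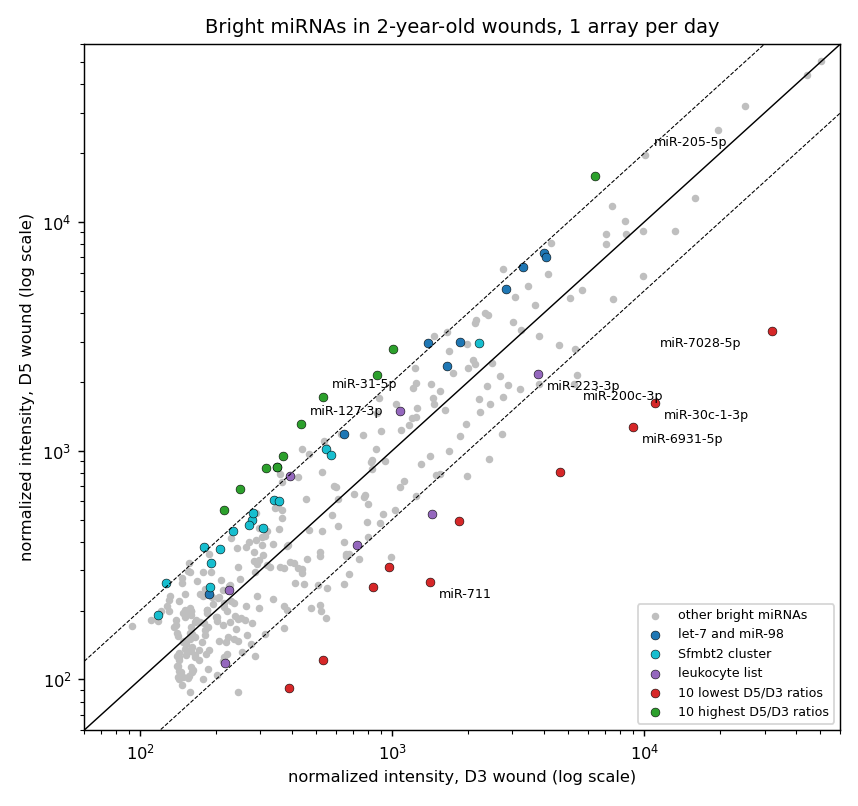
Normalized intensity of the 354 bright miRNAs in D3 wounds (x axis, log scale) against D5 wounds (y axis, log scale) of 2-year-old mice, each point 1 miRNA as the mean of 2 spots on 1 array per day. The solid line marks equal levels and the dashed lines 2-fold differences. The 10 lowest ratios lie below the lower dashed line, with miR-7028-5p at a ratio of 0.104. The 10 let-7 and 16 listed Sfmbt2 members all lie above the solid line.

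The largest difference was that of miR-7028-5p, whose normalized level was 31991 at D3 and 3340 at D5, a ratio of 0.104 with 0.128 and 0.0854 from its spots. Its level was 17397 at D0, 17926 at D7 and 50346 in young unwounded skin, so that the D5 array was the low one among the 5. miR-133b-5p, the passenger arm of a skeletal muscle miRNA, was also lowest at D5, with 2216 at D0, 4630 at D3 and 804 at D5. Unlike miR-7028-5p, it was far above its D0 and D3 levels at D7, with 28349, and was at 23062 in young skin. Its D5/D3 ratio was 0.174, with 0.245 and 0.123 from the spots.

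Other miRNAs with low ratios had their highest level of the 5 arrays at D3. miR-6931-5p was at 694 at D0, 9018 at D3, 1274 at D5, 662 at D7, with 1527 in young skin, and its D5/D3 ratio was 0.141. miR-711, encoded within the type VII collagen gene Col7a1, was at 83.0 at D0, where its scanned intensity did not exceed the empty spots, then at 1412 at D3, 267 at D5 and 124.6 at D7. Its ratio of D5 over D3 was 0.189, with 0.198 and 0.180 from its spots. The D3 array was thus the high one for both.

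The 3′ arms of the miR-30c hairpins stood out within the miR-30 family, whose 5′ arms are abundant in most tissues. miR-30c-1-3p was at 406 at D0, 10983 at D3, 1614 at D5, 1019 at D7, with 749 in young skin, with a D5/D3 ratio of 0.147. miR-30c-2-3p, which shares its seed, was at 388 at D3 and 91.6 at D5, a ratio of 0.236. That ratio was 0.0513 with subtraction of the empty spots and 0.0517 in the processed values. The 3′ arms also differ little outside the seed, so the dimmer miR-30c-2-3p may share signal with miR-30c-1-3p, which was not tested. The 5′ arm miR-30c-5p, which both hairpins give, was on the other side of 1 at 2086 and 2484, a ratio of 1.19. Of the other 5′ arms, miR-30b-5p had a ratio of 0.789, miR-30e-5p 1.09, miR-30a-5p 1.48 and miR-30d-5p 1.62. The median of the 7 bright miR-30 members was 1.09, and it lay below 1 under 5 of 14 alternatives, with 0.892 after scaling to the median.

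The rest of the 10 lowest had ratios of 0.229 for miR-7036a-5p (0.0889 in the processed values), 0.267 for miR-6944-5p, 0.300 for miR-6349 and 0.319 for miR-7011-5p. miR-7036a-5p and miR-30c-2-3p were bright at D3 only. Little is known of what these high-numbered miRNAs do. Of the 28 lower miRNAs, 4 were in any of the lists of cell type markers, families and clusters, against 11 of the 21 higher and 121 of the 354 bright miRNAs.

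Base composition differed along the ratios. Since a ratio below 1 is favoured by the choice itself for the 64 miRNAs bright at D3 only, the values are given over the 278 bright on both arrays, as a set added after the data were seen. Among the 70 of these with at least 45.5% G, the 75th percentile of all bright miRNAs, the median D5/D3 ratio was 0.657. Of the 70, 17 were at least 2-fold lower (background 8.27%) and 5 at least 2-fold higher (background 7.19%). Among the 90 with at most 22.7% G, the 25th percentile, the median was 1.19, with 2 lower and 3 higher (same backgrounds). Over all 354 the medians were 0.692 and 1.19.

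For GC content the median among those bright on both arrays was 0.693 at 63.6% or more and 1.18 at 43.5% or less. For C content it was 1.28 in the 76 miRNAs at or above the 75th percentile and 1.08 in the 66 at or below the 25th. The low-C median over all 354 was 0.759, so its side of 1 depended on the miRNAs bright on 1 array only.

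The motifs GGGAG and GGGGA were chosen with earlier results of these data known. The low-ratio miRNAs shown first that hold them are kept in, so the medians and counts here are not an independent check. GGGAG, searched in the mature strand only, was in 45 bright miRNAs (12.7%) and in 5.37% of all 1900 on the array. Of these 45, 32 were bright on both arrays, with a median ratio of 0.643, against 1.17 for the 246 without it. Of the 32, 13 were at least 2-fold lower (background 8.27%) and 1 at least 2-fold higher (background 7.19%). The motif GGGGA, which overlaps GGGAG in GGGGAG, was in 28 bright miRNAs, and the 14 of them bright on both arrays had a median of 0.395, against 1.15 for the 264 without. Among miRNAs bright on both arrays and of high GC content, the medians were 0.639 for the 23 with GGGAG and 0.793 for the 52 without. The higher miRNA with a motif was miR-6965-5p, which lies within the span of Ccnf, at 1011 at D3 and 2772 at D5, a ratio of 2.74.
miR-6965-5p: agaGGGAGgcuauugggcaggaga
It lies at chr17:24240919-24240942 on the minus strand. The miRNAs whose name has a number of 1000 or above, which were named later, had a median ratio of 0.794 over the 92 bright on both arrays, against 1.25 for the other 186. The scanned median of all miRNAs was 68.1 at D3 against a mean of 52.9 in the empty spots, and 62.5 against 57.4 at D5. The gap over the empty spots was thus wider at D3, where the G-rich miRNAs were also higher, and its part in the result was not tested.

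**Figure D2:**
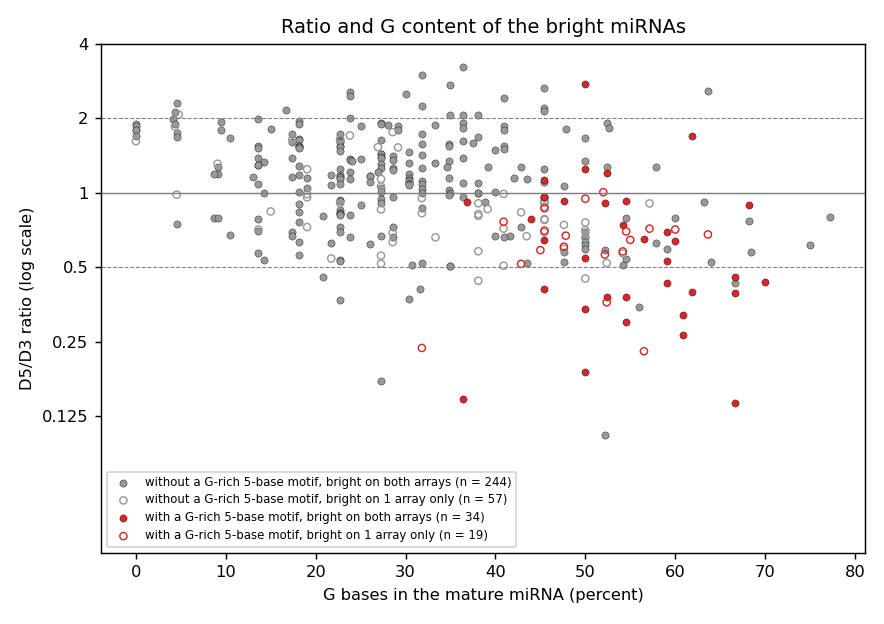
D5/D3 ratio of normalized intensity (y axis, log scale) of the 354 bright miRNAs against the percent of G bases in the mature miRNA (x axis), each point 1 miRNA; red points hold GGGAG or GGGGA (n = 53 in all). Filled points are bright on both arrays and open points on 1 array only, dashed lines mark 2-fold differences, and among the filled points the median is 0.657 at 45.5% G or more and 1.19 at 22.7% G or less.

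Among epithelial miRNAs, 10 of 11 were bright and 6 of the 10 were higher at D5 (background 50.6%), with a median ratio of 1.14. miR-31-5p, which is high in activated keratinocytes, had the highest ratio of all bright miRNAs. Its level was 2723 at D0, 533 at D3, 1714 at D5, 1273 at D7, with 206.4 in young skin, and its D5/D3 ratio was 3.22, with 3.36 and 3.07 from its spots. Its scanned intensities at D3 and D5 were 444 and 1087. The D3 array was the lowest of the 4 aged arrays for miR-31-5p, while the level at D5 stayed below that at D0.

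The keratinocyte miRNAs miR-205-5p and miR-203-3p, the latter known to restrain the proliferation of basal cells, were bright on both arrays. miR-205-5p was at 19546 at D0, 10039 at D3, 19586 at D5 and 12112 at D7, a D5/D3 ratio of 1.95. miR-203-3p was at 9669, 4136, 5935 and 8084 on the same days, a D5/D3 ratio of 1.44. Both were lowest at D3 among the aged arrays. miR-182-5p had a ratio of 1.35, and miR-183-5p of the same cluster 1.14, which was 0.998 on spot 1 alone.

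The miR-200 family, which keeps epithelial cells in their epithelial state by repressing Zeb1 and Zeb2, did not share 1 ratio. miR-200c-3p was at 2513 at D0, 5276 at D3, 1958 at D5, 1418 at D7, with 1416 in young skin, so the D5/D3 ratio was 0.371, with 0.388 and 0.355 from the spots. miR-200b-3p, with the same seed, was at 780 at D3 and 641 at D5, a ratio of 0.822. miR-429-3p, the other member with this seed, had a ratio of 0.831. The 3 are shown with the common seed in capitals.
miR-200c-3p: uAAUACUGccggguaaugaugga
miR-200b-3p: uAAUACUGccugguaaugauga
miR-429-3p: uAAUACUGucugguaaugccgu
miR-200c-3p lies at chr6:124718324-124718346 on the minus strand, while miR-200b-3p (chr4:156055685-156055706) and miR-429-3p (chr4:156053916-156053937) lie on the minus strand within Gm13648. miR-141-3p, from the miR-200c locus, had a ratio of 1.14 at levels of 140.6 and 160.1 and was bright at D3 only. miR-200a-3p, from the other locus, had a ratio of 0.850 at 525 and 446. The scanned ratio of miR-141-3p was 0.976, so its side of 1 rests on the normalization, whereas the 3 members from chromosome 4 had ratios from 0.822 to 0.850.

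**Figure D3:**
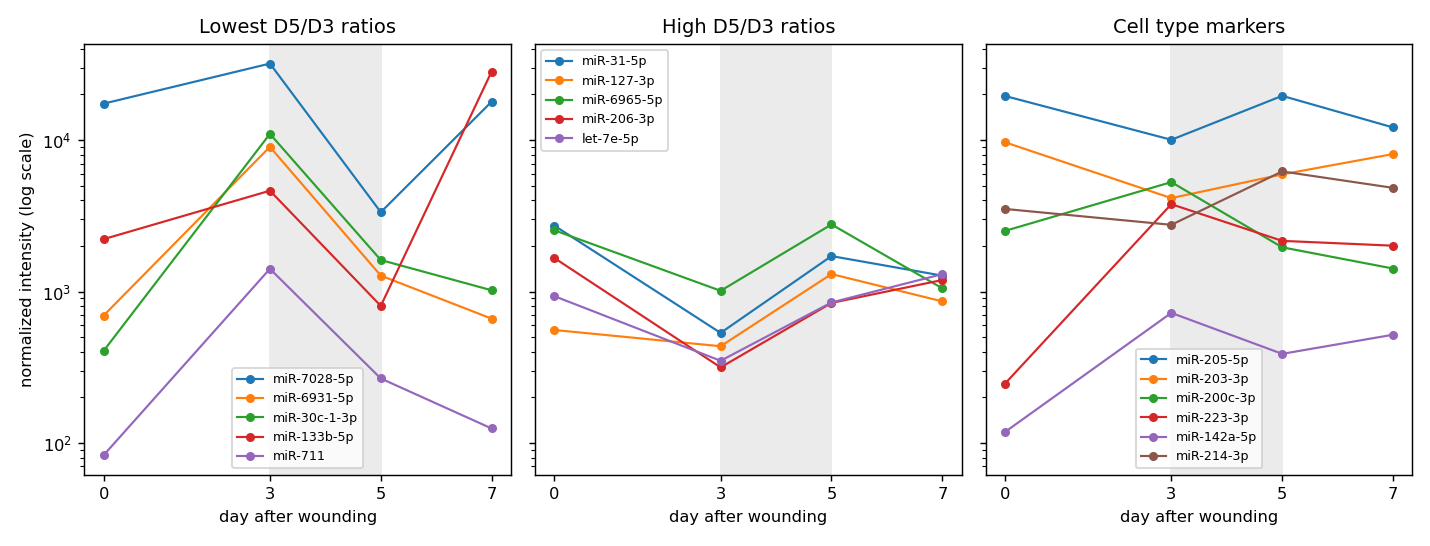
Normalized intensity (y axis, log scale) at D0, D3, D5 and D7 (x axis, day after wounding) in 2-year-old skin for the miRNAs named in each panel, with the step from D3 to D5 shaded. Each point is 1 array of different skin and the lines only guide the eye; miR-6931-5p, miR-30c-1-3p and miR-711 are highest at D3, and miR-31-5p, miR-206-3p, let-7e-5p and miR-205-5p are lowest there.

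Leukocyte miRNAs lay on both sides of 1, as the bright miRNAs in general did. Of 8 on the array 7 were bright, 3 of them higher at D5 and 4 lower (background 50.6% and 48.9%), with a median of 0.573 that was 0.790 over the 6 bright on both arrays. Their summed normalized level was 7836 at D3 and 5709 at D5. miR-223-3p, the miRNA of neutrophils and other myeloid cells, was at 247 at D0, 3772 at D3, 2160 at D5 and 2007 at D7. Its D5/D3 ratio was 0.573, with 0.606 and 0.541 from its spots. miR-142a-5p, expressed throughout blood cells, was at 118 at D0, 723 at D3, 388 at D5 and 518 at D7, a D5/D3 ratio of 0.536, and its other arm miR-142a-3p, bright at D3 only, had 0.543, or 0.286 in the processed values. Both stayed above their D0 level at D5.
miR-223-3p: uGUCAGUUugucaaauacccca
miR-142a-5p: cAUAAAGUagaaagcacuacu
The seeds are in capitals, and the miRNAs lie at chrX:96242884-96242905 and chr11:87756867-87756887 on the plus strand.

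The inflammation-induced miR-146 pair lay apart. miR-146b-5p was at 1433 at D3 and 530 at D5, a ratio of 0.370, while miR-146a-5p, encoded elsewhere and with the same seed, was at 1075 and 1490, a ratio of 1.39. miR-155-5p, induced in activated macrophages and lymphocytes, was at 225 and 245, a ratio of 1.09 that lay below 1 under 5 of 14 alternatives. miR-150-5p, typical of mature lymphocytes, was at 526 at D0, 391 at D3 and 777 at D5, a ratio of 1.99. miR-223-3p and miR-150-5p thus lay on opposite sides of 1.

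Of the injury-induced list of miR-21, miR-132, miR-210, miR-221 and miR-222, 5 were bright, all on both arrays. All 5 were lower at D5 (background 40.6% of those bright on both arrays), with a median of 0.664. miR-21a-5p, which is raised in many injured tissues, was at 2325 at D0, 13263 at D3, 9172 at D5 and 12027 at D7. Its D5/D3 ratio was 0.692, with 0.755 and 0.633 from the spots. miR-210-3p, a target of the hypoxia response, was at 395 at D0, 519 at D3, 345 at D5 and 242 at D7, a D5/D3 ratio of 0.664. miR-221-3p and miR-222-3p, which share a cluster and restrain the cell cycle inhibitor p27, had ratios of 0.622 and 0.661. miR-132-3p was at 200 and 188, a ratio of 0.940 that did not keep its side of 1 in 3 of 14 alternatives.

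The fibroblast miRNAs miR-199a, miR-199b and miR-214 were higher at D5 in all 5 arms measured, with a median of 1.60. All 5 were bright on both arrays (background 58.6%, and 50.6% of all bright miRNAs). miR-214-3p was at 3508 at D0, 2756 at D3, 6206 at D5 and 4834 at D7, a D5/D3 ratio of 2.25 with 2.57 and 1.98 from the spots. miR-199a-3p was at 2146 at D3 and 3715 at D5 and at 7103 at D7. miR-199a-5p had 1237 and 1980 and was at 4515 at D7, with a D5/D3 ratio of 1.60. The lowest ratio of the list was 1.25, for miR-214-5p.

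The miR-29 family, which targets collagen messenger RNAs, was on the other side of 1 in all 3 members, with a median of 0.668. All 3 were bright on both arrays (background 40.6% below 1). They differ from the nearest other member at 1 to 4 positions, so their probes may share signal and the 3 values are not independent. miR-29a-3p was at 3820 at D3 and 3187 at D5, a ratio of 0.834. miR-29b-3p was at 1304 and 871, a ratio of 0.668, and miR-29c-3p at 278 and 177, a ratio of 0.635. The common seed is in capitals.
miR-29a-3p: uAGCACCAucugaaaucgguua
miR-29b-3p: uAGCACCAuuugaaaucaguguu
miR-29c-3p: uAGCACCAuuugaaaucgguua
miR-29a-3p lies at chr6:31062673-31062694 on the minus strand and miR-29c-3p at chr1:195037600-195037621 on the plus strand within A330023F24Rik, and miR-29b-3p has copies beside each of them.

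Of 5 endothelial and smooth muscle miRNAs on the array 3 were bright, all on both arrays. All 3 were higher at D5 (background 58.6% of those bright on both arrays), with a median of 1.63. miR-126a-3p, the endothelial miRNA within Egfl7, was at 2391 at D3 and 3907 at D5, a ratio of 1.63. miR-143-3p and miR-145a-5p, the smooth muscle pair, had ratios of 1.26 and 1.72. The erythroid miR-451a was at 1034 and 1593, a ratio of 1.54, and miR-486a-5p at 146.6 and 278.7, a ratio of 1.90. These were the 2 bright of the 4 miRNAs on the erythroid list, and both were bright on both arrays (background 58.6%). The other arm of the same hairpin, miR-486a-3p, was not on the list. It was bright at D3 only, with a ratio of 0.907. The few listed vessel and red cell markers that were bright were thus higher on the D5 array, whereas miR-486a-3p was not.

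Skeletal muscle markers, which follow the thin panniculus carnosus under mouse skin, were mixed. Of the 6 on the list 4 were bright, and their summed normalized level was 28504 at D0, 8817 at D3, 12087 at D5 and 14435 at D7. The list and these sums leave out the bright arm miR-133b-5p, whose D5/D3 ratio was 0.174. The direction of the sum from D3 to D5 depends on leaving it out. miR-206-3p, which is induced in regenerating muscle, was at 1664 at D0, 316 at D3, 841 at D5 and 1191 at D7, with a D5/D3 ratio of 2.67. miR-133a-3p and miR-133b-3p, which differ little in sequence and may share signal, both had ratios of 1.52. miR-1a-3p, which has the seed of miR-206-3p, was at 1956 at D3 and 1313 at D5, a ratio of 0.671. How much muscle each sample held was not tested.

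The let-7 family, which represses growth genes and marks differentiated cells, was higher at D5 in all 10 members. All 10 were bright on both arrays (background 58.6%, and 50.6% of all bright miRNAs). The median ratio was 1.81, with a range from 1.26 for miR-98-5p to 2.43 for let-7e-5p. let-7e-5p was at 932 at D0, 349 at D3, 847 at D5 and 1302 at D7. let-7b-5p was at 4575, 1391, 2970 and 3399 on these days, with a D5/D3 ratio of 2.13. let-7a-5p was at 8053, 4002, 7292 and 7203, with a D5/D3 ratio of 1.82. The members share their seed and differ from the nearest other member at 1 to 4 positions, so their probes may share signal and the 10 values are not independent. The family median was above 1 under all 14 alternatives, with a lowest value of 1.34 after scaling to the median.

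**Figure D4:**
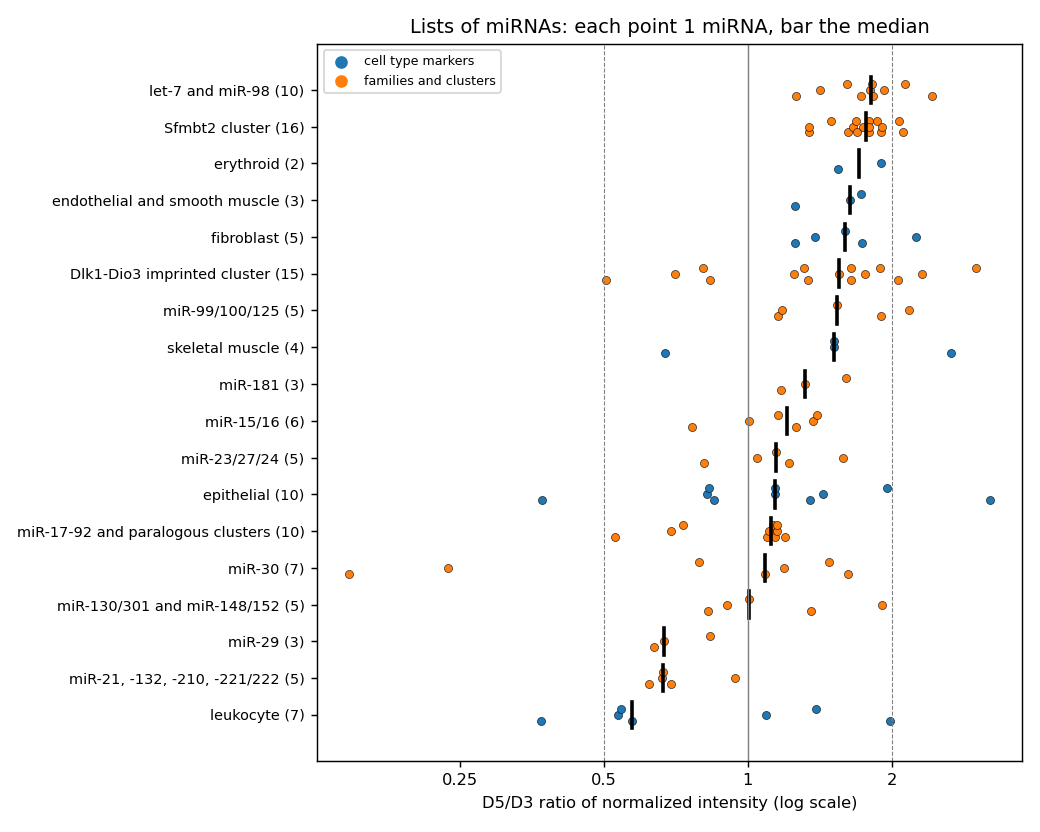
D5/D3 ratio of normalized intensity (x axis, log scale) for the bright members of 18 lists of cell type markers, families and clusters, with the number of bright members in parentheses. Each point is 1 miRNA and each bar the median of a list; the let-7 and Sfmbt2 lists lie wholly above 1, and the miR-29 and injury-induced lists wholly below.

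The listed miRNAs of the Sfmbt2 cluster, a repeat-rich family in an intron of Sfmbt2, were on the same side as let-7. Of the 30 on the list 16 were bright, and all 16 were higher at D5 (background 50.6%), with a median of 1.77. So were the 14 bright on both arrays (background 58.6%). The list is partial and leaves out other bright miRNAs with related names, such as miR-669p-3p and miR-466q. The range was from 1.34 for miR-466i-5p, at 2210 and 2965, to 2.11 for miR-669f-3p, at 180 and 380. The motif ACACAC, searched in the mature strand only, was in 18 bright miRNAs (5.08%) and 1.95% of those on the array, and the 15 of them bright on both arrays had a median ratio of 1.79 against 1.09 for the other 263. It was in 3 of the 21 higher and in 0 of the 28 lower miRNAs. This motif too was chosen with earlier results of these data known, so its median is not an independent check. Members differ from their nearest relative at 1 to 16 positions, and the closest of them may share signal.

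The imprinted Dlk1-Dio3 cluster is a long run of miRNAs expressed from the maternal chromosome. Of the 58 miRNAs on the list used for it, 15 were bright, 11 of them higher at D5 (background 50.6%), with a median of 1.55. The list leaves out some bright arms, such as miR-665-5p with a ratio of 1.53 and miR-341-5p with a ratio of 1. Over the 9 bright on both arrays, 7 were higher (background 58.6%), with the same median. miR-127-3p, which lies antisense to Rtl1, was at 557 at D0, 435 at D3, 1304 at D5 and 861 at D7, a D5/D3 ratio of 3.00 with 3.23 and 2.78 from the spots. miR-329-3p was at 439 at D3 and 1014 at D5, a ratio of 2.31, and miR-379-5p at 157 and 324, a ratio of 2.06. The 4 listed members below 1 were miR-665-3p at 0.506, miR-770-3p at 0.706, miR-668-3p at 0.806 and miR-341-3p at 0.834. These 4 and the 11 others lay at GC contents that differ, with 65.0% for miR-665-3p and 40.9% for miR-329-3p, and the part of base composition was not tested.

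The family of miR-99, miR-100 and miR-125 was higher at D5 in all 5 members, with a median of 1.53. All 5 were bright on both arrays (background 58.6% above 1), and 4 were above 1 in the processed values. miR-125a-5p was at 1461 at D3 and 3170 at D5, a ratio of 2.17, and miR-125b-5p at 4277 and 8120, a ratio of 1.90. The lowest was miR-99a-5p at 1.15, which lay below 1 on spot 1 alone at 0.970. miR-181a-5p, miR-181b-5p and miR-181c-5p had ratios of 1.17, 1.32 and 1.60.

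Families linked to proliferation had medians closer to 1. The miR-17-92 and paralogous clusters had 10 of 12 members bright, 7 of them above 1 (background 50.6%), with a median of 1.12 that lay below 1 under 5 of 14 alternatives. In the authors' processed values 2 of the 10 were above 1, with a median of 0.938. miR-25-3p was the lowest at 1485 and 786, a ratio of 0.529, and miR-106a-5p the highest at 586 and 700, a ratio of 1.2. The 6 members of the miR-15/16 family, which restrain the cell cycle, had a median of 1.21, from 0.764 for miR-15b-5p to 1.39 for miR-497a-5p, and it was below 1 under 3 alternatives. The miR-23/27/24 clusters had a median of 1.14, from 0.812 for miR-27a-3p to 1.58 for miR-24-3p, and it lay below 1 under 6. The 5 bright members of the list of miR-130, miR-301, miR-148 and miR-152 had a median of 1.0, from 0.827 for miR-130b-3p to 1.91 for miR-130a-3p, and 1.17 over the 4 bright on both arrays.

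The remaining high ratios belonged to no list. miR-3970 was at 296 at D0, 250 at D3, 679.4 at D5, 1174 at D7, with 2021 in young skin, a D5/D3 ratio of 2.72. miR-455-3p, which lies within the collagen gene Col27a1, was at 457 at D0, 215 at D3, 552 at D5 and 428 at D7, a ratio of 2.57. miR-6968-5p, with 81.8% GC, was at 368 and 946, also 2.57, and was the only miRNA at least 2-fold higher among the 100 of highest GC content. miR-5099 at 6366 and 15922 had a ratio of 2.50, or 1.56 in the processed values, and miR-5121 at 867 and 2138 had 2.47.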

How the data were processed

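The levels of miRNAs were measured by a service provider on single-colour arrays, with 0.5 ug of total RNA per the labels and 1 array for each of 5 conditions, which were taken from the sample labels. The authors deposited the scanned median intensity of each spot, linear and not normalized, with empty local background columns, and a table of processed intensity per miRNA, whose background correction and normalization are not given in the sources used here. No column without a sample was found (0).

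Spot intensities were background corrected with normexp (offset 50) in limma 3.58.1 under R 4.3.3, fitted on the spots alone because no local background exists. Control spots were then left out, log2 values were quantile normalized over the 5 arrays, and the 2 spots were averaged. The D5/D3 ratio is given on the linear scale. Tables and plots were made with Python 3.11.15, pandas 2.3.3, numpy 2.4.6 and matplotlib 3.10.9. The computation was tested on simulated data, with changes planted in miRNAs well above the brightness limit on a copy of the D3 array. The simulation did not cover changes in dimmer miRNAs, a background that differs between arrays, or the choice of scaling. With 1 array per condition no test was run, and precision is limited by how many arrays there are.

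miRNAs were named by rule: the 10 highest and 10 lowest ratios among bright miRNAs whose spots and processed values gave the same direction, every bright cell type marker, the highest and lowest member of each family list, and the miRNAs nearest the brightness limit. Others named were chosen after their values were seen. The members, lists and motifs were chosen with earlier results of these data known. The 18 lists were epithelial, leukocyte, skeletal muscle, erythroid, endothelial and smooth muscle, and fibroblast markers, let-7, miR-17-92, miR-15/16, miR-29, miR-30, miR-23/27/24, miR-99/100/125, the miR-130, miR-301, miR-148 and miR-152 list, miR-181, injury-induced, Dlk1-Dio3 and Sfmbt2 miRNAs. Alternatives covered the normalization, the background correction, the processed values with values below 1 set to 1, each spot alone, the brightness limit and the fold threshold, and medians over the miRNAs bright on both arrays were added after the data were seen. Sequences and positions come from RefSeq tables (GRCm38.p6), and positions were matched by miRNA name and sequence.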

Additional observations from a re-analysis of the deposited data

How the results depend on the processing

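No paired analysis was possible because there is 1 array per condition. The counts of miRNAs at least 2-fold higher and lower at D5, 21 and 28, became 7 and 50 without normalization between arrays, 5 and 54 after scaling to the median of all miRNAs (median ratio 0.876), 8 and 49 after cyclic loess, and 6 and 51 after scaling to the 5S probes. Scaling to the spike controls gave 13 higher. An offset of 16 gave 32 higher, subtraction of the mean of the empty spots 55 higher and 68 lower, the authors' processed values 34 and 87, and spot 1 alone 34 higher. By construction, a threshold of 1.5-fold gave 87 and 80, and of 3-fold 1 and 10. Apart from these thresholds, the cause of the shifts was not tested. The other counts stayed within 1.5 times the main ones, and no ratio of 2-fold or more among the 25 named changed side. Of 71 named miRNAs, 65 kept their side of 1 under all 14 alternatives for the values. The exceptions were miR-106a-5p, miR-132-3p, miR-155-5p, miR-181a-5p, miR-183-5p and miR-99a-5p. Of 18 list medians, 13 kept theirs. Those that did not were miR-17-92, miR-15/16, miR-30, miR-23/27/24 and the list of miR-130, miR-301, miR-148 and miR-152. The normalized and processed ratios lay on opposite sides of 1 for 26 of the 354 miRNAs. Signal over background limits the dim members, and 64 of these miRNAs were bright at D3 only and 12 at D5 only. Over the miRNAs bright on both arrays, a set added after the data were seen, the medians of the 18 lists lay on the same side of 1 as over all bright members.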

Other observations

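The arms of 1 hairpin come from the same transcript. For 23 hairpins both arms were bright, and the arms' D5/D3 ratios differed by a median of 1.34-fold, and 8 pairs fell on opposite sides of 1, with 6 pairs differing by 2-fold or more. The widest gap was that of miR-7028, with 0.104 for the 5′ arm, which holds 52.2% G, and 1.30 for the 3′ arm, which holds 13.6% G. miR-133b had 0.174 and 1.52 for its 5′ and 3′ arms. In miR-7045 the 5′ arm had 66.7% G and a ratio of 0.393, and the 3′ arm had 9.52% G and a ratio of 1.93. The sequences show the contrast, with capitals for GGGAG and GGGGA.
miR-7045-5p: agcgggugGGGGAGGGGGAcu
miR-7045-3p: ucuccccccucccccgcacag
Both lie within Chd4, at chr6:125097029-125097049 and chr6:125097066-125097086 on the plus strand. The arm with more G was often not the lower: miR-6965 had 2.74 for its 5′ arm with 50% G and 0.908 for its 3′ arm with 27.3% G. The arm with more G also had the higher ratio in miR-214, miR-652, let-7d, miR-574, miR-22, miR-1839, miR-140, miR-378a, miR-199a and miR-142a. In miR-574 the 5′ arm had 47.8% G and a ratio of 1.82, and the 3′ arm 9.09% G and 1.27. In the remaining pairs the arm with more G was the lower. Among these, miR-486a had 0.907 for the 3′ arm against 1.90, and miR-665 had 0.506 for the 3′ arm against 1.53. Both arms of miR-142a, miR-151, miR-199a and miR-378a differed by at most 1.08-fold.

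miRNAs with 1 seed did not always share a ratio. The seed GGAAUGU belongs to miR-1a-3p at 0.671, miR-206-3p at 2.67 and miR-6349 at 0.300. The seed GAGGGAG belongs to miR-6965-5p at 2.74, miR-7047-5p at 0.651 and miR-7235-5p at 0.456. The seed CCCUGAG, of the miR-125 group, had a median of 1.85 over 4 bright miRNAs, and the seed GUAAACA of the miR-30 5′ arms 1.19 over 5.

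Several bright miRNAs outside the lists lay past 2-fold. miR-378b and miR-378d, of a family linked to energy metabolism, were both at a ratio of 2.06, and miR-378c was at 1.89. miR-1907 was at 2.19, and it shares the seed AGCAGCA with the miR-15/16 family. On the low side, miR-1224-5p was at 5409 at D3 and 2148 at D5, a ratio of 0.397, and miR-705 at 2735 and 1188, a ratio of 0.434. miR-1892 was at 0.380 and miR-1949 at 0.459.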
